A study of Mus musculus with 5 samples.

Results

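Mouse embryonic fibroblasts undergoing reprogramming toward pluripotency were exposed to mastoparan or to paraquat until day 8, and the 2 resulting RNA sequencing libraries were compared with each other directly, gene by gene. They are 2 of the 5 libraries of the series. The series also holds an untreated day-8 control, used below as a further value for each gene, and 2 day-4 libraries of cells expressing Flag (the control) or CypD. Each condition is 1 library, so differences lack a replicate check, and intervals cover counting error only. All cells are fibroblasts of ICR mice. The genotype label of the 3 day-8 libraries says that they express CypD, which the design text does not mention for day 8. Ppif, the gene of CypD (cyclophilin D, a matrix protein that regulates the mitochondrial permeability transition pore), had 90 reads in the day-8 control, 95 with mastoparan and 79 with paraquat. On day 4 it had 2629 reads with CypD and 112 with Flag. Doses, and which factors were delivered, are not stated in the labels.

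Mastoparan is a peptide of wasp venom that inserts into membranes and activates heterotrimeric G proteins of the Gi and Go class, and it is also used to open the mitochondrial permeability transition pore. Paraquat is a bipyridyl herbicide that takes electrons from cellular reductases and passes them to oxygen, which yields superoxide. The transcription factor Nrf2, encoded by Nfe2l2, is released from its inhibitor Keap1 under oxidant exposure and switches on genes of glutathione and thioredoxin metabolism. Reprogramming is driven by Oct4 (Pou5f1), Sox2, Klf4 and c-Myc, which are usually delivered as transgenes. The tables hold 1 value for each gene, so RNA of a transgene and RNA of the cell's own copy cannot be told apart.

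The cells carried fibroblast RNA on both sides. Vimentin (Vim), the intermediate filament protein of mesenchymal cells, had 9849 reads with mastoparan and 8279 with paraquat, and the collagen chain Col1a2 had 3990 and 2992. Read numbers here and below are not scaled for depth, which was higher with mastoparan, so a pair of them does not by itself give a direction. All 36 genes of a fibroblast and matrix list passed the minimum described below, and their summed level was 9565 CPM with mastoparan and 9329 CPM with paraquat, against 9400 CPM in the control. CPM is the number of reads for each 1000000 reads of the scaled library. In bulk RNA such as this, fewer cells of a type and less RNA per cell cannot be told apart.

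The libraries held 2834186 reads assigned to genes with mastoparan and 2426015 with paraquat, against 3016439 in the control. At this depth the limit that a count of 0 allows, taken as 3 reads, is 1.05 CPM with mastoparan and 1.30 CPM with paraquat. Of 29267 genes, 13652 averaged at least 1 CPM over the 3 day-8 libraries. Their log2 levels on both sides had a Pearson correlation of 0.966 across genes, which share the same libraries and depths. The log2 ratio of mastoparan over paraquat had a median of 0.02 and an interquartile range of -0.23 to 0.27.

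At least a 2-fold excess with mastoparan was seen for 470 genes (3.44%), and at least a 2-fold excess with paraquat for 377 (2.76%). These shares depended on the level of the gene. At an average of at least 5 CPM they were 134 of 11159 genes (1.2%) and 85 (0.762%), and at 20 CPM or more they were 24 of 7905 (0.304%) and 17 (0.215%). Genes can also share sequence with a copy or an overlapping neighbour, and reads of such genes may be divided differently in each library. Below 20% of 49-base windows shared with any other gene, 13 of 7353 well-read genes were 2-fold higher with mastoparan (0.177%) and 9 with paraquat (0.122%). A lower step of 1.5-fold, used for the gene lists below, was passed by 1302 genes on the mastoparan side (9.54%) and 1029 on the paraquat side (7.54%).

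**Figure D1:**
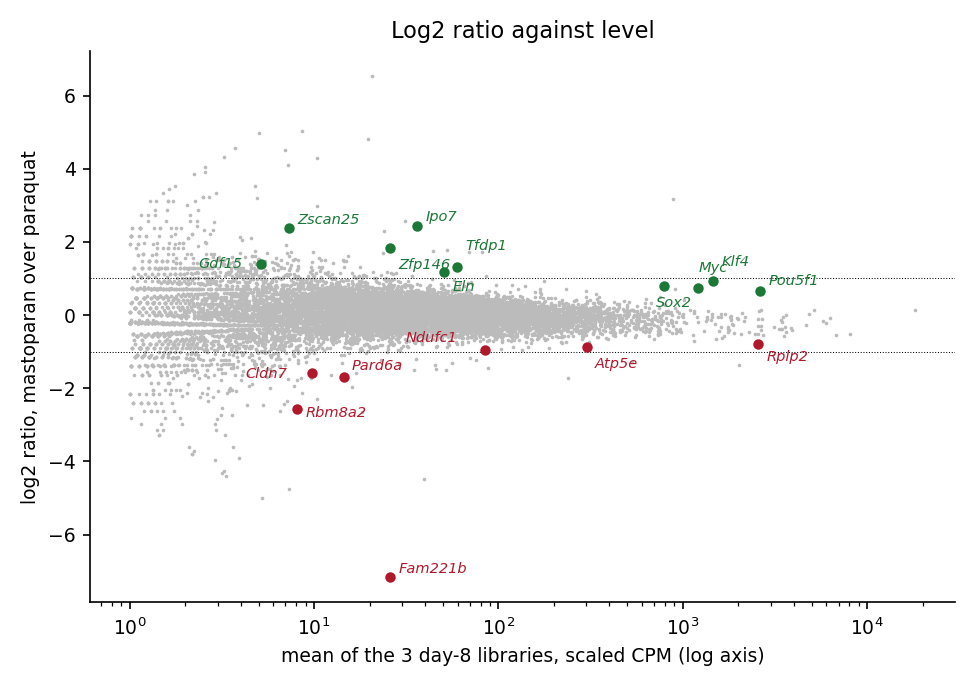
Log2 ratio of mastoparan over paraquat (vertical axis) against the mean level of the 3 day-8 libraries in scaled CPM (horizontal log axis) for 13652 genes, with 1 library per condition. Dotted lines mark a 2-fold difference, and colours mark named genes higher with mastoparan (green) or paraquat (red). The cloud narrows with level, and Klf4, Sox2, Myc and Pou5f1 lie above it at levels where few genes do, with log2 ratios from 0.66 to 0.93.

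The broadest difference between the 2 exposures ran along transcript length. Genes with short transcripts were higher with paraquat and genes with long transcripts were higher with mastoparan. Of 1407 genes under 1000 bases, 1156 had a ratio below 0 (82.2%, against 47.8% of all genes), and 272 were at least 1.5-fold higher with paraquat (19.3%) against 89 with mastoparan (6.33%). Of 1650 genes of 5000 bases or more, 1139 had a ratio above 0 (69%, against 52.1% of all genes), with 192 at least 1.5-fold higher with mastoparan (11.6%) and 61 with paraquat (3.70%). Lengths are the mean of the transcript lengths deposited with the day-8 tables.

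Cut into 10 bins of equal size along length, the median log2 ratio was -0.33 in the shortest bin (up to 982 bases) and 0.15 in the longest (5336 bases or more). It was closest to 0 in the fourth bin, from 1689 to 2030 bases. Across genes the ratio increased by 0.14 log2 for each doubling of length, and by 0.16 among genes of at least 20 CPM. Set beside the control that both share, the median in the shortest bin was 0.39 for paraquat over control and 0.07 for mastoparan over control, and in the longest bin it was -0.20 and -0.04. The paraquat library was the one that stood apart in length: genes under 1000 bases took 23.6% of its reads, against 19.2% with mastoparan, 18.3% in the control, 16.6% in the Flag library and 17.6% in the CypD library. With 1 library per side, the exposure and any other difference between these libraries cannot be told apart.

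**Figure D2:**
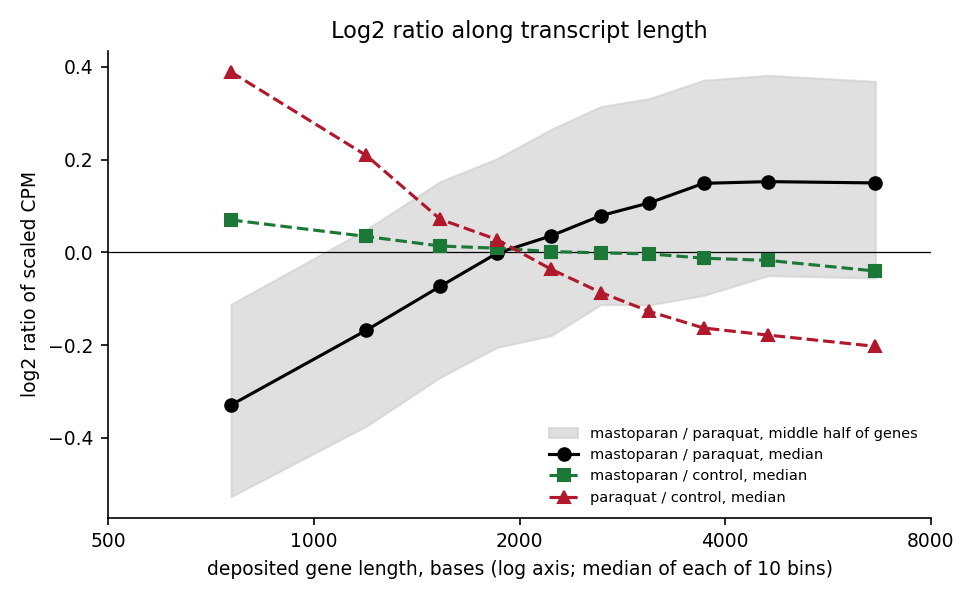
Median log2 ratio of scaled CPM (vertical axis) in 10 bins of deposited gene length (horizontal log axis, bases) for mastoparan over paraquat (black, with the interquartile range shaded), mastoparan over control (green) and paraquat over control (red). The black line climbs from -0.33 to 0.15, the red line runs from 0.39 to -0.20, and the green line stays between 0.07 and -0.04.

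Because of this trend, ratios are given below as measured and then again after the trend was removed. For that, the median ratio of 40 length bins, joined by straight lines, was subtracted from each gene. Below the median length of the shortest bin, and above that of the longest, the value subtracted was constant. Length was therefore not removed among the genes within those end ranges. After removal 433 genes were at least 2-fold higher with mastoparan (3.17%) and 375 with paraquat (2.75%). The 1.5-fold step was passed by 1113 (8.15%) and 954 (6.99%), and 49.9% of genes lay above 0 and 50.1% below.

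The reprogramming factors stood out among abundant genes: all 4 were higher with mastoparan than with paraquat, and mastoparan was close to the control. Klf4, a zinc-finger factor, had 5861 reads in the control, 4676 with mastoparan and 1985 with paraquat. Its level was 1.91-fold higher with mastoparan (95% counting interval 1.81 to 2.01), a log2 ratio of 0.93 and of 0.87 without the trend. Sox2, the partner of Oct4 at many enhancers, had 2912, 2587 and 1213 reads in the same order, a ratio of 1.73 (1.61 to 1.85). In both genes the paraquat library was the low one.

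Myc, which drives growth and proliferation genes, had 4448, 3912 and 1908 reads, a 1.66-fold excess with mastoparan (1.57 to 1.75). Pou5f1, the core pluripotency factor, had 9473, 8397 and 4312 reads, a 1.58-fold excess (1.52 to 1.64), and 9.63% of its windows occur in another gene. On the deposited TPM scale, which divides by length, Klf4 was at 904 with mastoparan and 370 with paraquat, Sox2 at 523 and 257, Myc at 1415 and 717, and Pou5f1 at 3280 and 1805. The log2 ratios without the trend were 0.73 for Sox2, 0.81 for Myc and 0.78 for Pou5f1, with a median of 0.79 over the 4 factors against 0.76 as measured. The median over all genes was 0.02 as measured and -0.000813 without the trend.

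The pluripotency genes outside that set showed no such common difference. Nanog, a factor of the naive network, had 21 reads in the control, 14 with mastoparan and 10 with paraquat, and the interval of its ratio ran from 0.468 to 2.85. Of 30 listed pluripotency genes 18 passed the minimum. Of these 2 were at least 1.5-fold higher with mastoparan and 1 with paraquat (9.54% and 7.54% of all genes). Their median ratio was 0.11, and 0.01 without the trend. L1td1, an RNA-binding protein of pluripotent cells, had 663 reads with mastoparan and 439 with paraquat, a log2 ratio of 0.29 and a counting interval of the ratio from 1.08 to 1.38. Tet2, which oxidises methylated cytosine, had 126, 104 and 87 reads in control, mastoparan and paraquat, a log2 ratio of -0.05.

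**Figure D3:**
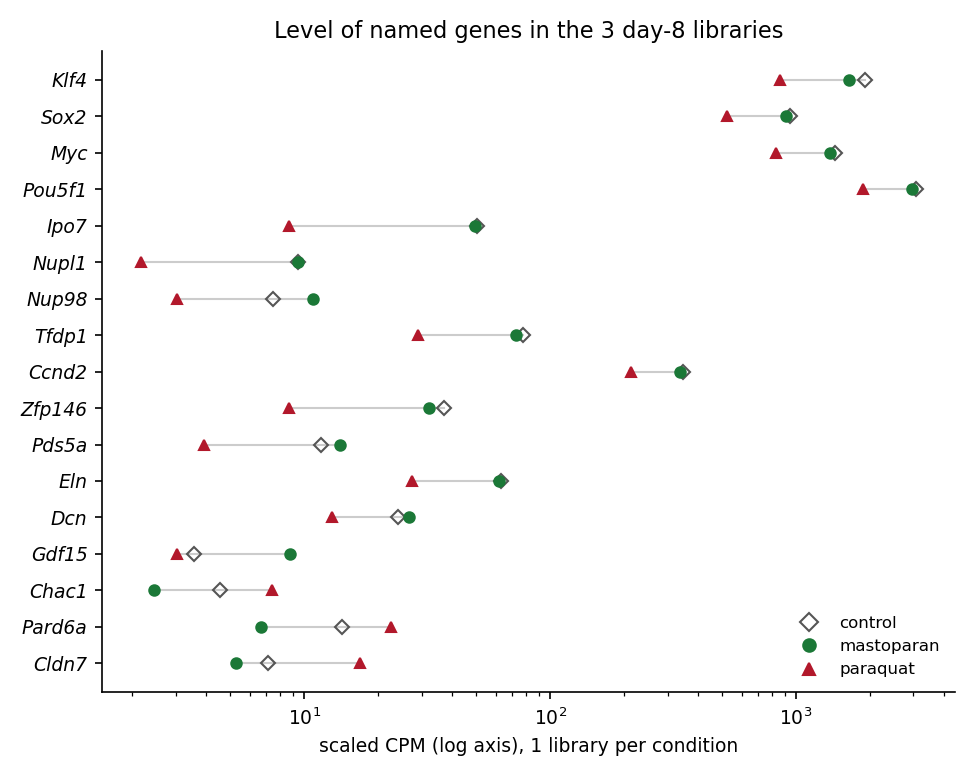
Level of 17 named genes in scaled CPM (horizontal log axis) in the control (open diamond), mastoparan (green circle) and paraquat (red triangle) libraries of day 8, 1 library each. From Klf4 to Dcn the paraquat library is the lowest of the 3, and for Chac1, Pard6a and Cldn7 it is the highest, with Pard6a at 52 reads against 19 with mastoparan.

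Outside the factors, Ipo7, Zscan25, Zfp146 and Tfdp1 were among the genes with the largest well-counted excess with mastoparan. The genes chosen by the size of their counting bound (average of the pair 5 CPM or more) included Ipo7, Zscan25, Zfp146, Tfdp1, Klf4, Pds5a, Eln, Arhgef11, Nupl1, Ndst1 and Sox2. Ipo7, an import receptor that carries ribosomal proteins and histones into the nucleus, lies on chromosome 7 (110018274 to 110056609, GRCm38). It had 155 reads in the control, 141 with mastoparan and 20 with paraquat, a 5.71-fold excess with mastoparan (3.56 to 9.63). No window of Ipo7 occurs in another gene, its deposited length was 3117 bases on both sides, and the ratio without the trend was 2.33 log2.

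Tfdp1 (chromosome 8, 13338751 to 13378448), the DNA-binding partner of E2f factors, had 240, 207 and 67 reads in control, mastoparan and paraquat, a 2.50-fold excess (1.89 to 3.35). Zfp146, a zinc-finger protein, had 114, 92 and 20 reads. It shares 1.02% of windows with Zfp260 (104 and 92 reads with mastoparan and paraquat), and summed with it the log2 ratio was 0.50 in place of 1.84. Zfp260 has more reads on both sides, so the sum does not show how reads of Zfp146 were divided. For Tfdp1 and Zfp146 the control lay nearer to mastoparan than to paraquat, and their log2 ratios without the trend were 1.35 and 1.80.

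Pds5a, which binds the cohesin ring that holds sister chromatids together, had 40 reads with mastoparan and 9 with paraquat, and Nipbl, the cohesin loader, had 101 and 36. A pair of ring subunits chosen after their values were seen differed less: Smc3 had 277 and 171 reads and Rad21 had 393 and 258, log2 ratios of 0.39 and 0.30. Eln, elastin, had 195 reads in the control, 176 with mastoparan and 63 with paraquat, a 2.26-fold excess, and Dcn, the collagen-binding proteoglycan decorin, had 74, 76 and 30. Arhgef11, a guanine-nucleotide exchange factor for small GTPases, had 58 and 16 reads, and Ndst1, an enzyme of heparan sulfate modification, had 57 and 16. In each of these genes the paraquat library was the lowest of the 3 day-8 libraries.

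The 13 genes of at least 20 CPM that were 2-fold higher with mastoparan and shared little sequence were Ipo7, Zfp146, Tfdp1, Eln, Dcn, Nipbl, the ubiquitin ligase Herc2, the Ras inhibitor Rasa1, the protease Capn7, the chromatin factor Mllt10, Ccdc88c, and the noncoding Gm26809 and Gm37416. In all 13 the control lay nearer to mastoparan than to paraquat, 9 of them share no window with another gene, and 11 remained 2-fold higher without the trend. Sums with the gene that shares most windows were lower for some genes on this side too. Zscan25 (38 and 5 reads) went from 2.38 to 0.28 log2 with Zkscan5 (57 and 58 reads), a sum that follows Zkscan5. Arhgef11 went from 1.49 to 0.57 with Lrrc71, and Mllt10 from 1.02 to 0.43 with Dnajc1. Gm26809 stayed at 1.74 (from 1.78) with Gm12840, and Ccdc88c at 1.18 with A630072L19Rik. A lower sum does not show how reads were divided.

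Most of the genes with the largest excess with paraquat share sequence with a second gene. Of the 9 genes of at least 20 CPM in this group, 8 share at least some windows with another gene, with a median of 7.85% of windows over the 9. On the mastoparan side 4 of 13 did, and the share over all genes was not counted. Of the 9 genes 7 remained 2-fold higher with paraquat without the trend. Nol4l shares only 0.77% of windows, and its log2 ratio was -1.31, or -0.78 when summed with Eapp. Syn3, a synapsin whose intron contains Timp3 on the other strand, had 93 reads in the control, 92 with mastoparan and 215 with paraquat. Timp3, a metalloproteinase inhibitor, went the other way with 656, 596 and 253. Summed, the pair had 688 reads with mastoparan and 468 with paraquat, a ratio of 1.19 (1.06 to 1.34), so the excess of Syn3 with paraquat was not seen in the sum.

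Further genes overlap a neighbour. Rpgrip1, a ciliary protein, had 89 reads with mastoparan and 201 with paraquat, and its neighbour Supt16, a histone chaperone, had 399 and 197, which gave a summed ratio of 0.993 (0.868 to 1.14). Myo1h, a myosin, had 31 and 77 reads and its neighbour Kctd10 had 275 and 174, a summed ratio of 0.987 (0.833 to 1.17). LTO1 had 146 and 279 reads and its neighbour Ccnd1, cyclin D1, had 1430 and 1064, a summed ratio of 0.950 (0.883 to 1.02). Each sum has an interval that includes 1. Where the neighbour has several times the reads, as Kctd10 and Ccnd1 do, the sum follows the neighbour, so it does not show how reads of Myo1h or LTO1 were divided.

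Other high values belonged to genes that share sequence with a gene on another chromosome. Fam221b was listed at 0 reads with mastoparan and had 165 with paraquat. It was 67.9-fold higher with paraquat if 3 reads replace the 0, and the lower end of its counting interval was 54.6-fold. Serf2, with which Fam221b shares 13.2% of windows, had 1323 and 1366. Rbm8a2, a copy of the exon-junction protein gene Rbm8a, had 9 and 49 reads, against 445 and 398 for Rbm8a. Fyb had 50 and 116 reads, against 806 and 827 for Phb, with which it also shares windows. How reads were divided between such genes was not tested, and the levels of Fam221b, Rbm8a2 and Fyb are uncertain.

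Mitophagy and autophagy genes had no common direction. Of 24 genes 0 were at least 1.5-fold higher with mastoparan and 2 with paraquat (9.54% and 7.54% of all genes). In the same list 13 lay above 0 and 11 below, and the median was 0.02. Map1lc3a, a protein that coats autophagosomes, had 255 and 333 reads (log2 ratio -0.69, or -0.46 without the trend), and the receptor Calcoco1 had 329 and 197 (0.43).

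Shorter genes with no shared window were also higher with paraquat, 3 of which are given here. Pard6a, a scaffold of the polarity complex at tight junctions, had 44 reads in the control, 19 with mastoparan and 52 with paraquat, a 3.38-fold excess with paraquat (1.96 to 6.05). Cldn7, a claudin of epithelial tight junctions, had 22, 15 and 39 reads. Oxld1 had 68, 40 and 77 reads. In all 3 the mastoparan library was the lowest and the paraquat library the highest.

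Genes of the mitochondrial respiratory chain were higher with paraquat as measured, nearly all of them by a small amount. Complex I takes electrons from NADH. Of its 37 listed nuclear-encoded subunits 36 had a ratio below 0 (47.8% of all genes, 82.2% of genes under 1000 bases). Their median was -0.42. None reached 1.5-fold on the mastoparan side, and 6 did on the paraquat side (7.54% of all genes, 19.3% of genes under 1000 bases). Ndufc1 had 212 reads in the control, 178 with mastoparan and 282 with paraquat, a 1.96-fold excess with paraquat (1.62 to 2.37). Ndufa2 had 530, 559 and 753 reads. Scaled, the control, mastoparan and paraquat were at 68.8, 62.5 and 122 CPM for Ndufc1, and at 172, 196 and 326 CPM for Ndufa2. In both genes the control was nearer to mastoparan than to paraquat.

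The other complexes had similar medians. Complexes II to IV (25 genes) had a median of -0.32, with 22 below 0. In this list 3 genes were at least 1.5-fold higher with paraquat (7.54% of all genes, 19.3% of genes under 1000 bases). Among them Uqcr11, a small subunit of complex III, had 501 and 694 reads. The ATP synthase list (17 genes) had a median of -0.39, with 15 below 0, and Atp5e, the epsilon subunit, had 671 reads with mastoparan and 998 with paraquat. These genes are short, with median deposited lengths of 681 bases for complex I, 637 for complexes II to IV and 645 for the ATP synthase. Without the length trend the medians were -0.09, -0.02 and -0.02, and no gene of the 3 lists was 1.5-fold apart in either direction.

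Within the chain the longer members were mixed. Atp5a1, the alpha subunit of the ATP synthase at 2313 bases, had 3269 reads with mastoparan and 2423 with paraquat, a log2 ratio of 0.13, while Atp5e at 424 bases was at -0.88. Ndufs1, a core subunit of complex I at 1591 bases, was at 0.14, and Ndufc1 at 322 bases was at -0.96. Ndufs4, a subunit of 1534 bases, had 276 and 327 reads and was at -0.55, or -0.48 without the trend. Ndufc1 without the trend was at -0.53 and Atp5e at -0.45. The list medians thus moved close to 0 without the trend, while Ndufc1, Atp5e and Ndufs4 stayed lower with mastoparan. Ndufc1 and Atp5e lie in the short end range, where the value subtracted was constant, so length was not removed among genes this short.

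**Figure D4:**
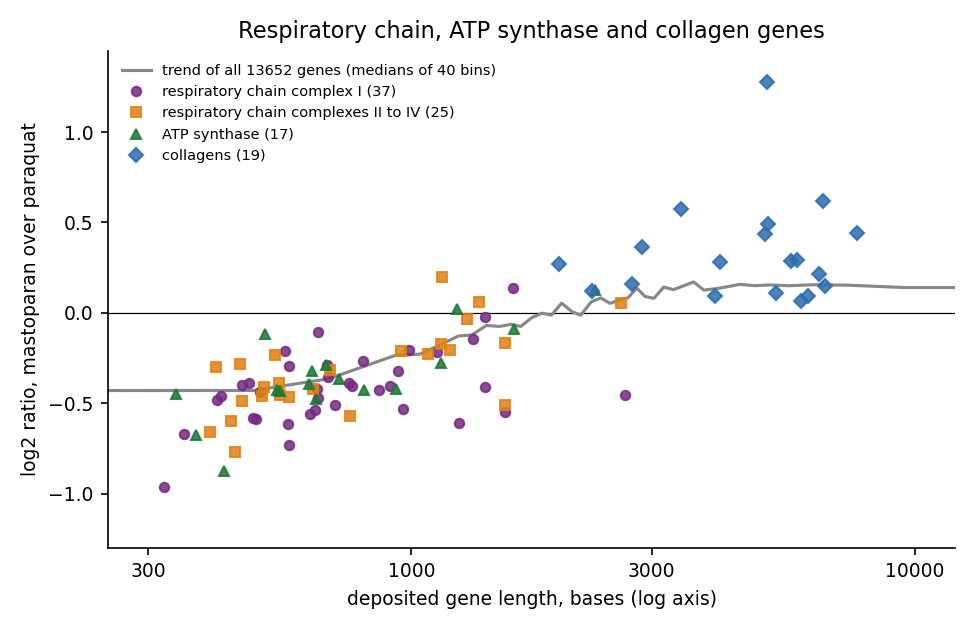
Log2 ratio of mastoparan over paraquat (vertical axis) against deposited gene length (horizontal log axis, bases) for genes of complex I (37), complexes II to IV (25), the ATP synthase (17) and the collagens (19), with the trend of all 13652 genes as a grey line. The respiratory genes fall along the low end of the line, Ndufc1 at -0.96 the lowest, and all 19 collagens lie above 0.

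Other lists of short genes had the same sign. Mitochondrial ribosomal proteins, which translate the mitochondrial mRNAs, had a median of -0.29 over 53 genes, with 47 below 0 and 4 at least 1.5-fold higher with paraquat (7.54% of all genes, 19.3% of genes under 1000 bases), such as Mrpl14 at 203 and 267 reads. Without the trend the median was -0.09. The proteasome (32 genes) had a median of -0.20, with 29 below 0, none 1.5-fold apart, and -0.04 without the trend. Of the cytosolic ribosomal proteins only the 5 analysed here can be described: Rplp0, Rplp1, Rplp2, Rpsa and Fau were all higher with paraquat. Without the trend 4 of the 5 were below 0 and 1 above. At least 20% of windows occur in another gene for 3 of the 5, among them Rplp1 (60.5%) and Fau (39.8%). Rplp2, a stalk protein of the large subunit, had 6201 reads in the control, 5919 with mastoparan and 8323 with paraquat, a log2 ratio of -0.80 and of -0.37 without the trend, and 14.1% of its windows occur elsewhere. Rpsa, at 1861 bases, had 20407 and 23605 reads and a log2 ratio of -0.51 before and after removal. Mitochondrially encoded mRNAs were not analysed here.

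**Figure D5:**
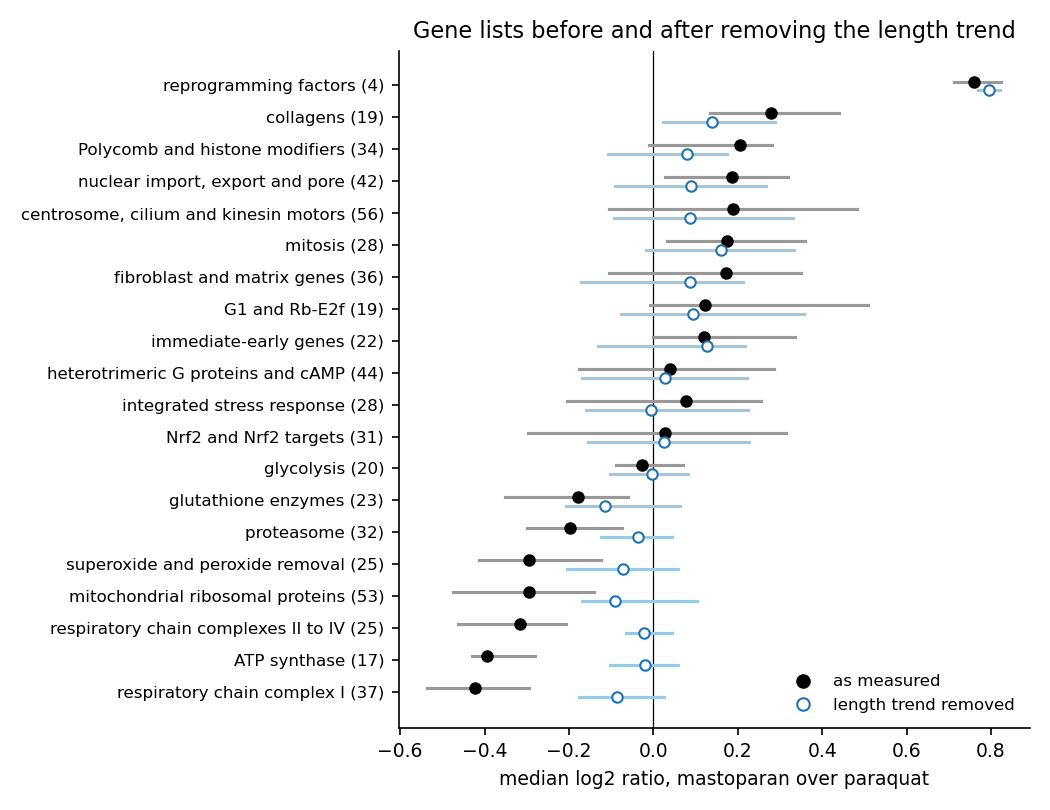
Median log2 ratio of mastoparan over paraquat (horizontal axis) for 20 gene lists with the number of genes in brackets, as measured (black) and without the length trend (open blue), with bars for the interquartile range. The reprogramming factors keep a median near 0.8, while the respiratory chain, ATP synthase, mitochondrial ribosomal and proteasome lists move from between -0.42 and -0.20 to between -0.09 and -0.02.

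Genes that control mitochondrial calcium and shape did not move together. Mcu, the pore of the calcium uniporter, had 140 reads in the control, 165 with mastoparan and 86 with paraquat, and Smdt1, a small regulator of the same channel, had 215, 244 and 275. Their log2 ratios were 0.63 and -0.47, and 0.52 and -0.11 without the trend. Of 21 permeability transition and calcium genes 11 lay above 0 and 10 below. Opa1, which fuses the inner membrane, had 168 reads with mastoparan and 94 with paraquat, and Fis1, an outer membrane protein of fission, had 303 and 351.

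Oxidant defence genes were higher with paraquat as measured and close to the background without the length trend. Superoxide and peroxide removal genes had a median of -0.29 over 25 genes, and -0.07 without the trend. Of these 21 lay below 0 (47.8% of all genes) and 1 was at least 1.5-fold higher with paraquat (7.54% of all genes). Sod1, the cytosolic superoxide dismutase, had 1967 reads in the control, 1944 with mastoparan and 2134 with paraquat, a log2 ratio of -0.44 that became -0.06. Sod2, its mitochondrial counterpart at 3824 bases, had 621 and 548 reads and a ratio of -0.12. Gpx4, which reduces lipid peroxides, had 1855 and 2166 reads, -0.53 as measured and -0.26 without the trend. Cat, catalase, had 312 and 233 reads and a ratio of 0.12.

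Glutathione enzymes had a median of -0.18 over 23 genes, and -0.11 without the trend. Chac1, which degrades glutathione and is induced in the integrated stress response, had 14 reads in the control, 7 with mastoparan and 17 with paraquat. Gclc, the catalytic subunit of glutathione synthesis, had 51 and 45 reads, and the interval of its ratio, from 0.603 to 1.40, includes 1.

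Nrf2 and its targets had a median of 0.03 over 31 genes, before and after removal of the trend, with 17 above 0 and 14 below. On each side 1 gene was at least 1.5-fold apart (9.54% and 7.54% of all genes): Abcc4 with mastoparan and Gstp1 with paraquat. Hmox1, heme oxygenase, the classic target, had 134 reads in the control, 134 with mastoparan and 77 with paraquat, a log2 ratio of 0.49 and of 0.56 without the trend. Nqo1, a quinone reductase, had 110, 111 and 92 reads and a ratio of -0.03. Txnrd1, thioredoxin reductase, had 310 reads with mastoparan and 200 with paraquat (0.33), Nfe2l2 itself had 323 and 212 (0.30), and Gclm, the regulatory subunit of glutathione synthesis, had 103 and 103 (-0.30). The 2 drug exporters Abcc4 and Abcc1 had 37 and 15 reads and 257 and 141 reads. Hmox1, Txnrd1, Abcc4 and Abcc1 were thus lower with paraquat than with mastoparan. Without the trend Txnrd1 was at 0.18, Abcc4 at 0.80 and Abcc1 at 0.40. Cbr3, Ftl1, Blvrb, Gstm1 and Taldo1 went the other way, from -0.38 to -0.29, and from -0.22 to -0.10 without the trend. Over the list the counting interval lay above 1 for 8 genes and below 1 for 6. The share of all genes whose interval leaves out 1 was not counted, so these counts do not set the list apart. Gstp1, a glutathione transferase, had 859 and 1046 reads, but 62.5% of its windows occur in other genes.

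Nrf2 binds the antioxidant response element, whose core letters are TGACNNNGC. Of the 31 genes 25 had a promoter in the RefSeq table of GRCm38.p6 (250 bases before to 50 after a start site), and 9 of these (36%) hold the core on either strand, against 3781 of 27025 genes (14.0%). Of the 9 genes 7 lay above 0 and 2 below (52.1% and 47.8% of all genes). Their median log2 ratio was 0.30 (0.18 without the trend), against -0.15 (-0.11) for the 16 genes with no match. Listed genes without a promoter there, such as Hmox1 and Abcc1, are in neither group. A gene was counted as matching if any of its promoters held the core. Shown here are promoters of the matching genes with the highest and the lowest ratio. Abcc4 has 2 matching promoters in the table, and the one farther upstream is printed. Capitals mark the core, read on the reverse strand in both. Abcc4 at chr14:118706170-118706469 (minus strand) was at 0.95, and Gclm at chr3:122245307-122245606 (plus strand) was at -0.30. The match begins 25 bases before the start site in Abcc4 and 134 bases before it in Gclm.
Abcc4 promoter: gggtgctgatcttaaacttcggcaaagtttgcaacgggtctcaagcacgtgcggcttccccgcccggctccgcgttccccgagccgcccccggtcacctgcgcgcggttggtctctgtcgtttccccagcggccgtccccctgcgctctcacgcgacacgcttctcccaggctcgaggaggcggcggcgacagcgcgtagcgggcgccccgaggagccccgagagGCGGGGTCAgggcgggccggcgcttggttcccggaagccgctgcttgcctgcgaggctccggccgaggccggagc
Gclm promoter: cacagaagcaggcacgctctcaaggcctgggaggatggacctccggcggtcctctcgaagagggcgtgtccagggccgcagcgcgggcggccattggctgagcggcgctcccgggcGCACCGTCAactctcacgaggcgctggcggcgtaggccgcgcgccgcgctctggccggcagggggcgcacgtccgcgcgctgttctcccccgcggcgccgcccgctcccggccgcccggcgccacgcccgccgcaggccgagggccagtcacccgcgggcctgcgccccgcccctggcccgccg

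A match is a description of letters, and binding was not measured.

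Genes that bring paraquat into cells or pass electrons to it showed no common direction. Of 17 listed genes 11 passed the minimum, with a median of -0.07. Among them 1 was at least 1.5-fold higher with mastoparan and 1 with paraquat (9.54% and 7.54% of all genes). Cyba, a membrane subunit of NADPH oxidases, had 295 reads in the control, 276 with mastoparan and 365 with paraquat, a log2 ratio of -0.70 and of -0.38 without the trend. Atp13a2, a lysosomal polyamine transporter, had 210, 159 and 176 reads and moved further from 0 without the trend, from -0.45 to -0.60. Por, the electron donor of cytochromes P450, had 289 and 237 reads and a ratio of -0.02.

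Iron genes differed one by one. The ferritin heavy chain Fth1 had 1177 reads with mastoparan and 1271 with paraquat (-0.41, or -0.15 without the trend), and the transferrin receptor Tfrc had 344 and 281 (-0.01). Ncoa4, the receptor that delivers ferritin to autophagy, had 67 and 143 reads, but summed with a pseudogene that shares its sequence its log2 ratio was 0.16, so its direction is uncertain.

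The G proteins on which mastoparan acts differed little at the RNA level. Gnai2, a Gi alpha subunit, had 1898 reads in the control, 1678 with mastoparan and 1314 with paraquat, a log2 ratio of 0.05 and a counting interval of the ratio from 0.962 to 1.11. Gnai3 was at 0.27 with 295 and 198 reads, and Gnas, the Gs subunit, was at 0.06. Over 44 genes of heterotrimeric G proteins and cAMP signalling the median was 0.04, with 6 at least 1.5-fold higher with mastoparan and 3 with paraquat (9.54% and 7.54% of all genes).

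Among their regulators, Pde4d, which degrades cAMP, had 96 reads with mastoparan and 50 with paraquat, and Gpsm2, which binds Gi alpha subunits and orients the spindle, had 133 and 70. Rgs3 and Rgs19, which speed GTP hydrolysis by G alpha subunits, were higher with paraquat at 50 against 39 and 97 against 87 reads. Without the trend the ratios of these 4 genes were 0.48, 0.46, -0.58 and -0.19. Phospholipase and exocytosis genes had a median of 0.07 over 27 genes. On each side 1 of them was at least 1.5-fold apart (9.54% and 7.54% of all genes).

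Stress response genes showed isolated differences at low counts. Over 28 genes of the integrated stress response, which raises Atf4 translation when initiation is slowed, the median was 0.08 and -0.01 without the trend. Gdf15, a secreted stress cytokine, had 11 reads in the control, 25 with mastoparan and 7 with paraquat, a log2 ratio of 1.39. Ddit3, the factor Chop, had 75, 50 and 61 reads and a ratio of -0.58, or -0.29 without the trend. Atf4 had 570 and 518 reads (-0.17), and Asns, asparagine synthetase and an Atf4 target, had 362 and 264 (0.15). Among the day-8 libraries Gdf15 was highest with mastoparan (8.77 CPM), but it was at 9.08 CPM in the day-4 Flag library and 6.95 CPM in the CypD library. Chac1 and Ddit3 were lowest with mastoparan among the day-8 libraries.

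Genes of the p53 response, of the BCL2 family and of protein folding were close to the background. The medians were 0.04 over 28 p53 and cell-cycle inhibitor genes, 0.06 over 17 BCL2 family genes, 0.05 over 23 genes of the unfolded protein response of the endoplasmic reticulum and 0.07 over 24 chaperones. Cdkn1a, the cell-cycle inhibitor p21, had 2411 reads in the control, 2295 with mastoparan and 1948 with paraquat, a log2 ratio of -0.07. Bax, which permeabilises the outer mitochondrial membrane, had 970 and 1040 reads (-0.40, or -0.14 without the trend), and Bcl2l2, which protects against it, had 105 and 54 (0.64 and 0.51). Hsf1, the heat shock factor, had 178 and 104 reads, a ratio of 0.47.

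Nuclear transport genes were mostly above 0, with few large ratios. Of 42 genes 32 had a ratio above 0 (52.1% of all genes), 5 were at least 1.5-fold higher with mastoparan (9.54% of all genes) and 1 with paraquat, and the median was 0.19. Without the trend 28 lay above 0, and the median was 0.09. Beside Ipo7, the pore proteins Nup98 and Nupl1 had 31 and 7 reads and 27 and 5 reads, and Ranbp2, the cytoplasmic filament of the pore, had 122 and 54. Kpnb1, importin beta, had 1050 and 750 reads and a ratio of only 0.18, and Xpo1, the main exporter of proteins, had 473 and 373 (0.04). A difference of the size seen in Ipo7 was thus not seen in Kpnb1 or Xpo1.

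Cell cycle genes had small ratios, and the 1.5-fold counts of G1 and mitosis genes fell when the trend was removed. In the G1 and Rb-E2f list 5 of 19 genes were at least 1.5-fold higher with mastoparan and 0 with paraquat (9.54% and 7.54% of all genes), with a median of 0.12. Without the trend 2 of 19 were so, near the 8.15% of all genes. Ccnd2, cyclin D2, had 1066 reads in the control, 957 with mastoparan and 493 with paraquat, a log2 ratio of 0.65, while Ccnd1 was at 0.12. Rbl2, a relative of the retinoblastoma protein, had 70 and 33 reads, and E2f1 had 105 and 86 (-0.02).

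In mitosis 24 of 28 genes had a ratio above 0 (52.1% of all genes), with a median of 0.18, and 4 were at least 1.5-fold higher (9.54%). Without the trend 20 lay above 0 (49.9% of all genes) and 1 passed 1.5-fold (8.15% of all genes), with a median of 0.16. Kif11, the motor that separates spindle poles, had 156 and 75 reads, and Cenpf, a kinetochore protein, had 114 and 58. Mki67, a marker of cycling cells, had 585 and 422 reads and a ratio of 0.17. The 35 DNA replication genes had a median of 0.07, with Mcm2, a subunit of the replicative helicase, at 305 and 185 reads (0.41).

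Collagens were higher with mastoparan, while other matrix genes were mixed. All 19 collagens had a ratio above 0 (52.1% of all genes, 69% of genes of at least 5000 bases), with a median of 0.28. Without the trend 14 of 19 were above 0 (49.9% of all genes), with a median of 0.14. Their median deposited length was 5108 bases. In the list of 36 fibroblast and matrix genes 23 lay above 0 (52.1% of all genes) and 13 below. The median of this list was 0.17, and 0.09 without the trend. Col3a1, a fibrillar collagen, had 1108 reads in the control, 1124 with mastoparan and 611 with paraquat, and Col5a2, which regulates fibril width, had 580, 542 and 285. Col1a1 had 2046 reads with mastoparan and 1582 with paraquat, a ratio of only 0.07. Timp1, a short gene of 861 bases that encodes a metalloproteinase inhibitor, was higher with paraquat at 862 against 735 reads. Tgfbr2, a TGF-beta receptor, had 208 and 100 reads.

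Epithelial genes, which are switched on early in fibroblast reprogramming, were mixed. Of 31 measured genes 6 were at least 1.5-fold higher with mastoparan and 2 with paraquat (9.54% and 7.54% of all genes). Their median was 0.04. Without the trend 4 and 1 passed that step (8.15% and 6.99% of all genes). Tjp1, the tight junction protein ZO-1, had 332 reads in the control, 311 with mastoparan and 162 with paraquat, and Pard6b had 23, 27 and 7, opposite to its relative Pard6a. The adhesion genes Cdh1 (69 and 52 reads) and Epcam (168 and 130) had ratios of 0.10 and 0.07. Of 22 keratin and cornified envelope genes 3 were at least 1.5-fold higher on each side (9.54% and 7.54% of all genes). Krt80 had 61 and 23 reads and Ly6d, a surface antigen, had 29 and 49.

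Chromatin genes were mostly above 0 but passed the 1.5-fold step no more often than all genes. Of 34 Polycomb and histone modifier genes 25 were above 0 (52.1% of all genes). Among them 3 were at least 1.5-fold higher with mastoparan (9.54% of all genes), and 0 of the 34 with paraquat. Without the trend 1 passed that step on each side, and the median of 0.20 became 0.08. Ehmt1, which methylates histone H3 at the lysine linked to silent chromatin, had 172 reads in the control, 167 with mastoparan and 75 with paraquat. Kdm4a, which removes methyl groups from histone H3, had 231, 234 and 118. Their ratios without the trend were 0.69 and 0.52. Dnmt1, the maintenance DNA methyltransferase, had 428 and 272 reads, a ratio of 0.35.

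Metabolic genes outside the respiratory chain differed little. None of 20 glycolysis genes and none of 24 genes of the TCA cycle and pyruvate entry was 1.5-fold apart, with medians of -0.03 and 0.08. Slc2a1, the glucose transporter, had 2368 reads with mastoparan and 1569 with paraquat (0.29), and Mdh2, malate dehydrogenase, had 1653 and 1638 (-0.29). Lysosome genes had a median of -0.08 over 25 genes, and cholesterol synthesis genes had a median of 0.07 over 22.

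Markers of other cell types were few. Of 9 mast cell markers 6 were at 0 reads in both libraries and the list summed to 1.75 CPM with mastoparan and 2.60 CPM with paraquat, and the myogenic factors Myod1, Myog, Myf5 and Myf6 were at 0 in both. Of 12 blood and macrophage markers 4 passed the minimum, and the list summed to 66.7 CPM and 67.2 CPM. Ptprc, carried by all blood leukocytes, had 1 read with mastoparan and 0 with paraquat. Neural and glial markers summed to 835 CPM with mastoparan and 864 CPM with paraquat, most of it from Stmn2 with 1853 and 1626 reads, and Gfap, Olig1, Olig2 and Dcx were at 0 in both. The chondrocyte and bone markers summed to 131 CPM and 103 CPM, the trophoblast and endoderm markers to 319 CPM and 376 CPM, and the endothelial markers to 74.0 CPM and 62.8 CPM. The part of such cells in the differences above was not tested.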

How the data were processed

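The 5 libraries were made from Trizol RNA with the TruSeq RNA kit, per the labels' protocols, and Bowtie2 2.2.5 and mm10 are named per the submitters' processing notes. How reads were counted is not stated there. The authors' deposited tables hold, per the file headers, an expected count, a TPM, an FPKM and 2 lengths for each gene. The deposited FPKM was not used for any result, and the deposited TPM served as an alternative scale. Symbols, positions and transcript sequences came from GENCODE M21 (GRCm38), which named 28756 of 29267 gene IDs. Ribosomal protein genes other than 5, and mitochondrial mRNAs, were not analysed here.

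Expected counts were rounded, and edgeR 4.0.16 (R 4.3.3) gave the TMM factors (1.02 control, 1.01 mastoparan, 0.951 paraquat). The log2 ratio used scaled CPM plus 0.5, with genes kept from an average of 1 CPM over the day-8 libraries, so it understates differences of low genes. Folds in the text are ratios of scaled counts with exact Clopper-Pearson 95% intervals, which cover counting error only. There was no test, because each side is 1 library; a 2-fold or 1.5-fold step was counted instead, and no separate cultures are named in the labels. Shared sequence is the share of 49-base windows of a gene's transcripts, on either strand, found in another gene. Named genes were Ppif, Tet2, Nanog, Klf4, Myc, Sox2 and Pou5f1, the 12 on each side whose interval lay farthest from 1 (mean of at least 5 CPM, under 20% shared windows), the 8 on each side by the same rule without the length trend, and up to 4 for each list; some genes that the rule names are not reported here. Further list members and partner genes are given for contrast and were chosen after their values were seen, as was Oxld1. Genes and lists were chosen with earlier results of these data known. The fold calculation was tested on simulated counts. Alternatives were DESeq2 1.42.0 size factors, library totals, the TPM scale, pseudocounts of 0.1 and 2, other minimum levels, GC and length trends, and sums with a partner gene (added after seeing the data).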

Additional observations from a re-analysis of the deposited data

How the results depend on the processing

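With 1 library for each exposure, no alternative can leave out a replicate, and no paired analysis was possible because the result comes from no test. The count of genes at least 2-fold higher with mastoparan, 470, was 1028 with no minimum level, 134 at 5 CPM, 24 at 20 CPM and 169 with a pseudocount of 2, and the count for paraquat, 377, was 758, 85, 17 and 154 in the same order. The median of all genes was 0.10 with library totals and 0.22 on the TPM scale, so ratios there are read against those shifts. The reprogramming factors had a median of 1.00 on the TPM scale. Complex I had a median of -0.34 with library totals, -0.23 on the TPM scale, -0.087 without the length trend and -0.10 without length and GC trends. For complexes II to IV the values on the TPM scale, without length, and without both trends were -0.18, -0.022 and -0.00242, and for the ATP synthase -0.19, -0.021 and -0.055. Summing with the gene that shares most sequence turned the direction of 6 named genes, a setting added after seeing the data: Syn3 0.25, Ncoa4 0.16, Cxcr2 -0.39, Hoxb3 -0.19, Mest -0.066 and Csf1r 0.33. The slope along length kept its sign in 12 of 12 alternatives, none of which removed the length trend. Other scaling factors and a shift of the median move all ratios almost alike, so they could hardly change the slope. At these depths, genes near 1 CPM rest on few reads, and their folds are uncertain.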

Other observations

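The deposited tables also give a mean transcript length for each gene in each library, which moves when the mix of a gene's transcripts is estimated differently. Among 7875 genes of at least 20 CPM the length was the same with mastoparan and paraquat for 2867 (36.4%), longer with mastoparan for 2743 and longer with paraquat for 2265. It was at least 1.5-fold longer with mastoparan for 77 genes and with paraquat for 46. Kmt2d, a histone methyltransferase, was listed at 8319 bases with mastoparan and 19805 bases with paraquat at 104 and 70 reads, and Mdn1, which remodels ribosome precursors in the nucleus, was listed at 2836 and 1102 bases at 87 and 54 reads. Rasa1, which was higher with mastoparan, was listed at 2021 and 4563 bases. These estimates rest on few reads and have no replicate.

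Imprinted growth genes, many of which are expressed in embryonic mesenchyme, had a median log2 ratio of 0.19 over 21 genes. Of these 4 were at least 1.5-fold higher with mastoparan and 0 with paraquat (9.54% and 7.54% of all genes). Plagl1 had 68 reads in the control, 72 with mastoparan and 34 with paraquat, and Peg3 had 82, 93 and 45. Inflammatory factors were low: of 32 listed 16 passed the minimum, and Vcam1 had 96 and 48 reads. Icam1 had 8 reads with mastoparan and was listed at 0 with paraquat. It was 2.16-fold higher with mastoparan if 3 reads replace the 0, a value that leaves out the counting error of the 8 reads. Centrosome, cilium and kinesin genes had a median of 0.19 over 56 genes and 0.09 without the length trend. Among them 8 were at least 1.5-fold higher with mastoparan and 2 with paraquat (9.54% and 7.54% of all genes). Hox genes had a median of -0.03 over 33 genes.

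Medians of the log2 ratio by chromosome stayed between -0.06 and 0.10 among genes of at least 20 CPM. The 18 antisense genes at that level had a median of -0.38, and of -0.23 without the length trend. Genes in the lowest of 10 bins of GC content had a median of 0.05 and genes in the highest bin a median of -0.09, both without the length trend.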
